A study of Homo sapiens with 12 samples.

Results

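The comparison described here set cells engineered to carry the most DLK1 transcript against cells engineered to carry the least. Both sides were made from H295R, an established human adrenocortical carcinoma line that makes steroid hormones. In the knock-down group (KD) DLK1 was lowered, and in the over-expression group (OE) it was raised. Its 8 libraries, replicates 3 to 6 of KD and replicates 3 to 6 of OE, were all libraries with these labels out of 12 in the series, and the 4 wild-type libraries entered neither the filter nor the scaling nor the test. RNA was taken from cultures at 70% confluence, and strand-specific paired-end libraries were sequenced. The labels name neither the knock-down agent nor the expression construct nor the number of clones behind each line, and no group with a control construct is named. Whether the replicates came from separate cultures is not stated either, so the p-values speak of the spread among these 8 samples alone, and that spread may be technical.

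DLK1 is an imprinted gene whose product is a transmembrane protein with epidermal growth factor-like repeats, related to the ligands of Notch receptors. It can be cleaved at the cell surface to release a soluble form. It is known as an inhibitor of adipocyte differentiation and is expressed in the fetal adrenal gland and in progenitor-like cells of the adrenal cortex.

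Gene counts summed to 11597523 to 13058210 per library in KD and 10480678 to 13797397 in OE. Of 60670 genes with an Ensembl identifier and counts, 15510 had enough counts to be tested. KD replicate 3 stood apart from the other libraries: 4.99% of its counts came from the mitochondrial genome, against 6.65% to 7.56% in the other 7, and its chi-square per degree of freedom against the other KD libraries was 6.14 to 10.96, against 2.83 to 4.22 in all other pairs within a group. The first principal component held 27.79% of the variance and separated KD (-26.97 to -12.6) from OE (16.72 to 21.16). All 8 markers of adrenocortical cells on a fixed list were tested, with a summed level of 1199 to 1406 CPM in KD and 1422 to 1536 CPM in OE (CPM, counts scaled for library size). Of the 8, 4 were called higher in OE (adjusted p under 0.05), as were 6.98% of all genes. These 4, STAR, CYP11A1, CYP17A1 and FDX1, count again in the list of steroid synthesis below, and FDX1 also in that of adrenocortical identity. Of the chromaffin markers, TH and DBH had no count in any library. The summed level of the chromaffin list was 2.79 to 4.6 CPM in KD and 1.9 to 2.71 CPM in OE, and that of the fibroblast list, with COL1A2 at 0, was 15.8 to 22.9 CPM in KD and 16.9 to 20 CPM in OE. Endothelial markers, with CDH5 at 0, summed to at most 0.69 CPM, and immune markers, with PTPRC, CD3D, CD3E and MS4A1 at 0, to at most 2.21 CPM. In RNA from whole cultures, fewer cells of a type and less RNA per cell cannot be told apart.

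DLK1 (ENSG00000185559) is on chromosome 14 of GRCh38, from 100725705 to 100738224 on the plus strand. In replicate order 3 to 6 its level was 1495, 1274, 1249 and 1370.4 CPM in KD and 3197, 3032, 3377 and 3322 CPM in OE. Every OE library lay above every KD library. The log2 fold change, OE minus KD, was 1.26 ± 0.05 (± standard error; edgeR quasi-likelihood test, adjusted p = 1.31e-14). Counts of transcript cannot separate the cell's own gene from a construct.

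Across all genes tested, 2064 (13.3%) passed an adjusted p of 0.05 and are termed called in what follows. Of these, 1083 (6.98%) were higher in OE and 981 (6.32%) were lower. Most of these differences were small, with a median absolute log2 fold change of 0.305 among called genes. Only 44 genes (0.284%) were called higher by more than 2-fold and 69 (0.445%) called lower by more than 2-fold. The libraries of the groups did not overlap in 2564 genes (16.5% of all tested), 1682 of them called. Most called genes thus separated the groups, and some named genes were picked partly for it. Separation is therefore given below as description and is no further support. Without KD replicate 3 the test called 1012 genes higher and 807 lower, and without KD replicate 6 it called 761 higher and 649 lower.

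**Figure D1:**
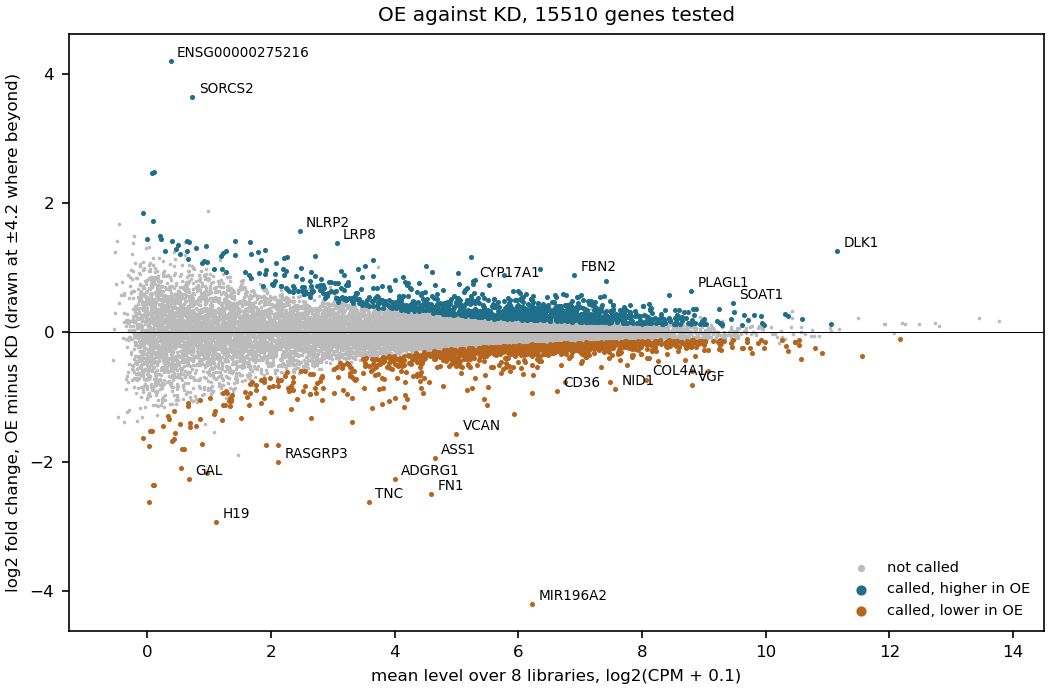
Log2 fold change (OE minus KD) against mean level (log2 of CPM plus 0.1) for 15510 genes, with genes called higher in OE in blue and called lower in brown; MIR196A2 and ENSG00000275216 are drawn at the limits of the axis because 1 group had no count. The genes furthest below 0 with a level well above the filter were TNC, FN1, ADGRG1, ASS1 and VCAN, and DLK1 was the furthest above 0 among genes of high level.

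The gene for the microRNA precursor miR-196a-2, MIR196A2, was counted 2167, 1616, 1795 and 1724 times in KD replicates 3 to 6 and 0 times in each OE library. With a floor of 3 counts over the 4 OE libraries it was at least 2399-fold lower in OE (adjusted p = 1.52e-34). MIR196A2 lies at chr12:53991738-53991847 on the plus strand of GRCh38, inside the span of HOXC6 in the cluster of HOXC homeobox genes. The counts are of reads assigned to this gene in libraries of long RNA and do not show that mature microRNA was made. The labels do not say whether a construct carries this hairpin, so the counts cannot separate the locus on chromosome 12 from a construct. The hairpin and the mature 5′ arm are shown because this gene carried the largest contrast between the groups; both are from RefSeq (GRCh38.p14), with the mature 5′ arm in capitals in the hairpin and the seed, bases 2 to 8, in capitals in the mature sequence.
hsa-mir-196a-2 hairpin: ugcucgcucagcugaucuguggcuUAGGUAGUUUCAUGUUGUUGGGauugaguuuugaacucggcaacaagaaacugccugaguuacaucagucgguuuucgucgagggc
hsa-miR-196a-5p: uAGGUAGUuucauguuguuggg
The same seed belongs to the mature 5′ products of MIR196A1 and MIR196B. MIR196A1 was counted 10, 12, 9 and 11 times in KD and 6, 4, 16 and 12 times in OE, and MIR196B was not counted in any of the 8 libraries. Among the 3 loci with this seed, MIR196A2 was the one whose counts separated the groups.

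None of the neighbouring HOXC genes tested was called. HOXC6, a homeobox transcription factor gene that spans the microRNA, was at 5.43 to 9.22 CPM in KD and 5.79 to 7.25 CPM in OE (log2 fold change -0.31 ± 0.18, adjusted p = 0.286). HOXC8 was at 0.93 to 1.55 CPM in KD and 1.53 to 2.79 CPM in OE (log2 fold change 0.83 ± 0.35, adjusted p = 0.117). HOXC9 (log2 fold change 0.29 ± 0.20, adjusted p = 0.386) and HOXC10 (log2 fold change 0.69 ± 0.33, adjusted p = 0.181) were not called either. Across 30 tested HOX genes 2 were called, both lower in OE (6.67%, near the 6.32% of all genes called lower). The number was 1 when any library but KD replicate 3 or KD replicate 6 was left out.

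The long intergenic RNA gene ENSG00000275216 on chromosome 13 had no count in KD and 32, 20, 33 and 30 counts in OE, at least 38.9-fold higher in OE with the same floor over the KD libraries. SORCS2, which encodes a sorting receptor of the Vps10 family, was at 0.229, 0.338, 0.323 and 0 CPM in KD and 2.59, 1.81, 3.35 and 3.86 CPM in OE (log2 fold change 3.64 ± 0.49, adjusted p = 6.2e-07). Both were low in level. Both separated the groups completely, which the rule that picked them required. LRP8, a receptor for reelin and apolipoprotein E, was higher in OE, at 3.31 to 6.21 CPM in KD and 10.5 to 13.9 CPM in OE (log2 fold change 1.38 ± 0.18, adjusted p = 5.53e-07).

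ADGRG1 encodes an adhesion G protein-coupled receptor also known as GPR56. Its level was 29.2, 23.1, 26.1 and 27.1 CPM in KD and 6.72, 4.49, 6.7 and 4.08 CPM in OE, with every OE library below every KD library (log2 fold change -2.27 ± 0.15, adjusted p = 3.88e-15). ASS1, the enzyme that joins citrulline and aspartate in the urea cycle and in arginine synthesis, was at 42.6, 33.8, 41.5 and 41.6 CPM in KD and 10.4, 10.5, 9.41 and 11.0 CPM in OE (log2 fold change -1.95 ± 0.11, adjusted p = 4.83e-17). OAT, ornithine aminotransferase, moved the other way, at 98.3 to 112 CPM in KD and 128 to 137 CPM in OE (log2 fold change 0.31 ± 0.06, adjusted p = 0.000107). Of the 31 tested enzymes of the urea cycle, nucleotide and one-carbon metabolism, 4 were called higher and 2 lower (12.9% and 6.45%). Without KD replicate 6 or OE replicate 4 these were 2 and 1. The median of the list was -0.052, opposite in sign to the balance of its calls.

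GAL, the precursor of the neuropeptide galanin, had few counts in both groups and was lower in OE, at 2.16 to 2.87 CPM in KD and 0.192 to 0.802 CPM in OE (log2 fold change -2.27 ± 0.41, adjusted p = 0.000107). VGF, a secretory granule protein precursor, was at 630.1, 543, 497 and 608 CPM in KD and 307, 303, 338 and 343 CPM in OE (log2 fold change -0.82 ± 0.07, adjusted p = 6.64e-07). CHGB, the granule matrix protein chromogranin B, was at 53.4 to 64.2 CPM in KD and 29.5 to 35.8 CPM in OE (log2 fold change -0.85 ± 0.08, adjusted p = 4.44e-10). VGF and CHGB did not overlap between the groups. Of 17 tested chromaffin and neuroendocrine genes, 1 was called higher and 5 lower (5.88% and 29.4%), against 6.98% and 6.32% of all genes. Leaving out OE replicate 3 or OE replicate 6 left 3 lower. Leaving out KD replicate 4 or OE replicate 3 left none higher. The chromaffin markers TH and DBH were at 0 in all libraries.

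Several of the lowest fold changes were those of genes for the matrix around the cells. Fibronectin (FN1), a glycoprotein that links integrins to collagen and that has been described as a binding partner of DLK1, was at 40.4, 40.7, 39.0 and 43.5 CPM in KD and 6.24, 7.0, 8.29 and 7.07 CPM in OE. Tenascin C (TNC), a glycoprotein of remodelling and embryonic matrix, was at 19.1, 20.2, 20.1 and 22.7 CPM in KD and 3.17, 4.49, 2.47 and 3.21 CPM in OE. Both were low in every OE library and high in every KD library. The log2 fold changes were -2.51 ± 0.11 for FN1 (adjusted p = 4.23e-20) and -2.62 ± 0.16 for TNC (adjusted p = 1.12e-15).

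The 250 bases before the annotated start of FN1 (chr2:215436069-215436318, minus strand) and of TNC (chr9:115118158-115118407, minus strand) are printed because these genes moved together by the most among matrix genes; they are from RefSeq (GRCh38.p14), read towards the gene. Capitals mark a match, on either strand, to 1 of 3 short motifs, the core letters AAGGTCA bound by the adrenal factor NR5A1, TGGGAA bound by the Notch effector RBPJ and CCGGAA bound by ETS factors.
FN1: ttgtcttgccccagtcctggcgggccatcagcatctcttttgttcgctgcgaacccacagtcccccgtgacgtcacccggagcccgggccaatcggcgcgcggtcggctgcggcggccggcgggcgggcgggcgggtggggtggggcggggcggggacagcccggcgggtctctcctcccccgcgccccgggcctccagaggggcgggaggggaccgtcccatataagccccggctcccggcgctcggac
TNC: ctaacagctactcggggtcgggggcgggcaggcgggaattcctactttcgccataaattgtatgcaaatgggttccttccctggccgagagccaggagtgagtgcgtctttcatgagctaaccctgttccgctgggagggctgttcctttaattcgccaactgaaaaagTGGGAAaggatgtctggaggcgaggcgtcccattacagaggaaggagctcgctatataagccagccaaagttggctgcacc
TNC held 1 match to the RBPJ letters, from 81 to 76 bases before the start, and FN1 held none of the 3. RBPJ letters occurred in 20.8% of 35116 RefSeq promoter windows of this length. Of the named genes with a RefSeq window, 20 of 82 lower in OE (24.4%) and 20 of 81 higher in OE (24.7%) held them. The ETS letters occurred in 14.5% of all windows, in 11 of the 82 and in 14 of the 81. A named gene was counted if any of its windows matched, and the shares of all windows are per window. A gene with several windows had more chances to match, so these shares are not strictly alike. The windows are short and a match is a description of letters, not a bound site.

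Of 36 tested genes of the interstitial matrix, 4 were called higher in OE and 8 lower (11.1% and 22.2%), with a median log2 fold change of -0.102 against -0.00376 over all genes. Versican (VCAN), a large chondroitin sulfate proteoglycan, was at 36.2, 50.6, 54.0 and 50.5 CPM in KD and 15.2, 13.3, 19.5 and 15.7 CPM in OE (log2 fold change -1.58 ± 0.12, adjusted p = 2.23e-10). SPP1, the secreted phosphoprotein osteopontin, was at 50.6 to 63.2 CPM in KD and 25.7 to 33.3 CPM in OE (log2 fold change -1.03 ± 0.09, adjusted p = 2.09e-11). MAMDC2, a secreted proteoglycan, was low in level at 2.18 to 3.89 CPM in KD and 0.346 to 1.12 CPM in OE (log2 fold change -2.18 ± 0.39, adjusted p = 8.5e-05). COL3A1, a chain of fibrillar collagen III and a fibroblast marker, was at 2.74, 0.761, 2.34 and 2.93 CPM in KD and 1.15, 0.518, 0.159 and 0.292 CPM in OE, with 1 KD library inside the OE range and the fibroblast marker COL1A2 at 0 throughout (log2 fold change -2.09 ± 0.48, adjusted p = 0.00236).

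Other interstitial matrix genes were higher in OE. FBN2, the microfibril protein fibrillin 2, was at 76.6 to 91.2 CPM in KD and 136 to 169 CPM in OE (log2 fold change 0.89 ± 0.06, adjusted p = 1.18e-13). TNXB, tenascin X, was at 5.58 to 7.24 CPM in KD and 11.1 to 12.1 CPM in OE (log2 fold change 0.89 ± 0.16, adjusted p = 6.51e-05). COL6A2, a chain of the beaded-filament collagen VI, was at 50.9 to 70.2 CPM in KD and 74.6 to 93.6 CPM in OE (log2 fold change 0.52 ± 0.08, adjusted p = 7.54e-05). None of these 3 overlapped between the groups. TNXB shares sequence with a partial copy of the gene next to it, so its counts are less certain.

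In the basement membrane, the sheet-like matrix under epithelial cells, members split. Of 22 tested, 5 were called higher and 6 lower (22.7% and 27.3%). NID1, nidogen 1, which joins laminin to collagen IV, was at 253, 236, 239.9 and 250.3 CPM in KD and 136, 129, 133 and 136 CPM in OE (log2 fold change -0.88 ± 0.05, adjusted p = 4.64e-17). The collagen IV chains COL4A1 and COL4A2, which are transcribed from a shared promoter in opposite directions, both fell. COL4A1 was at 324 to 357 CPM in KD and 193 to 209 CPM in OE (log2 fold change -0.73 ± 0.05, adjusted p = 2.39e-15). COL4A2 was at 589.6 to 709 CPM in KD and 403 to 457 CPM in OE (log2 fold change -0.60 ± 0.05, adjusted p = 8.79e-11). The laminin chain LAMB1 moved the other way, at 509.8 to 545 CPM in KD and 667 to 704 CPM in OE (log2 fold change 0.37 ± 0.04, adjusted p = 4.69e-09). So did the laminin chain LAMA2, at 148 to 170.2 CPM in KD and 195 to 220.2 CPM in OE (log2 fold change 0.43 ± 0.05, adjusted p = 1.09e-07). NID2, the paralogue of NID1, was also higher in OE, at 5.52 to 8.87 CPM in KD and 9.7 to 13.0 CPM in OE (log2 fold change 0.74 ± 0.16, adjusted p = 0.00139).

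**Figure D2:**
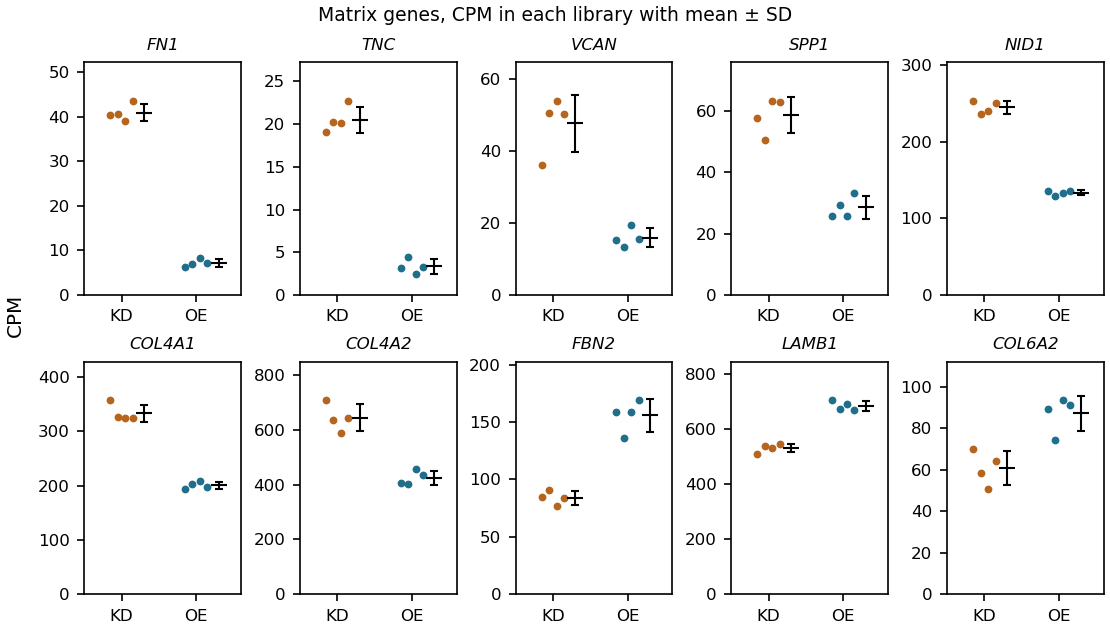
CPM of 10 matrix genes in each of the 4 KD and 4 OE libraries (points), with the mean and SD beside them; each axis starts at 0. FN1, TNC, VCAN, SPP1, NID1, COL4A1 and COL4A2 lie lower in every OE library, and FBN2, LAMB1 and COL6A2 higher.

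Receptors of the matrix were mixed, with 4 of 27 called higher and 5 lower (14.8% and 18.5%). The number lower was 3 without KD replicate 4 or OE replicate 3, 2 without OE replicate 4 and 3 with corrections for GC content and length. ITGA5, the fibronectin receptor chain integrin alpha 5, was at 54.4 to 60.7 CPM in KD and 35.6 to 43.1 CPM in OE (log2 fold change -0.53 ± 0.08, adjusted p = 2.98e-06). ITGA1, a chain of a collagen and laminin receptor, was at 296 to 346 CPM in KD and 412 to 422 CPM in OE (log2 fold change 0.35 ± 0.04, adjusted p = 2.01e-07). The cell surface heparan sulfate proteoglycan glypican 4 (GPC4) was at 25.4 to 32.7 CPM in KD and 44.4 to 52.6 CPM in OE (log2 fold change 0.74 ± 0.09, adjusted p = 7.16e-08). Among 30 tested matrix proteases and inhibitors, 4 were called in each direction (13.3% each), with 2 lower without KD replicate 6 or OE replicate 5. MMP2, a gelatinase, was at 5.97 to 8.37 CPM in KD and 1.63 to 5.18 CPM in OE (log2 fold change -1.03 ± 0.23, adjusted p = 0.00206). The membrane-bound protease MMP15 was at 14.3 to 17.8 CPM in KD and 21.9 to 28.1 CPM in OE (log2 fold change 0.63 ± 0.11, adjusted p = 0.000133). The inhibitor TIMP3 was at 797 to 865 CPM in KD and 942 to 1024 CPM in OE (log2 fold change 0.26 ± 0.04, adjusted p = 3.34e-06).

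Of 20 tested mesenchymal regulators and cytoskeletal genes, 1 was called higher and 6 lower (5.0% and 30.0%), and 6 remained the number called lower under each of the 15 other settings tried. ANXA1, the membrane-binding protein annexin A1, was at 22.8, 23.9, 28.1 and 22.2 CPM in KD and 12.7, 10.4, 10.8 and 9.92 CPM in OE (log2 fold change -1.15 ± 0.12, adjusted p = 4.46e-09). ACTA2, smooth muscle actin, was at 15.7, 11.7, 14.1 and 11.2 CPM in KD and 6.92, 7.17, 4.94 and 7.0 CPM in OE (log2 fold change -1.02 ± 0.16, adjusted p = 1.1e-05). S100A10, the partner of annexin A2, was at 5.03 to 6.09 CPM in KD and 1.83 to 2.77 CPM in OE (log2 fold change -1.23 ± 0.24, adjusted p = 0.00023). CNN2, calponin 2, was at 18.7 to 25.0 CPM in KD and 11.3 to 16.1 CPM in OE (log2 fold change -0.62 ± 0.12, adjusted p = 0.000437). VIM, the intermediate filament vimentin, was not called, at 412 to 449.6 CPM in KD and 442 to 469.8 CPM in OE (log2 fold change 0.077 ± 0.041, adjusted p = 0.235). Of 24 epithelial junction and keratin genes 4 were called (16.7%), all higher in OE, and 2 were higher without OE replicate 3 or OE replicate 6. The 4 were DSP, CLDN1, CLDN12 and CDH2, which is N-cadherin, so the list does not hold epithelial genes alone. The groups overlapped in CDH2 (log2 fold change 0.20 ± 0.06, adjusted p = 0.023). With library sizes alone, DESeq2, all 12 libraries, corrections for GC content and length, or without KD replicate 4, 1 member was called lower. DSP, the desmosomal protein desmoplakin, was at 107 to 125 CPM in KD and 148 to 175 CPM in OE (log2 fold change 0.48 ± 0.06, adjusted p = 8.43e-08).

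Of 22 tested genes of steroid synthesis, 7 were called higher in OE and 1 lower (31.8% and 4.55%), with a median log2 fold change of 0.133; the count was 7 and 1 without KD replicate 3 as well, and 8 and 2 with corrections for GC content and length. STAR, which moves cholesterol into mitochondria for the pathway's opening step, was at 376, 334, 313 and 348 CPM in KD and 457, 408, 436 and 447 CPM in OE (log2 fold change 0.35 ± 0.05, adjusted p = 1.55e-06). Its OE libraries all lay above its KD libraries. CYP11A1, which cleaves the cholesterol side chain in that step, differed little, at 239 to 267 CPM in KD and 269.9 to 288 CPM in OE (log2 fold change 0.14 ± 0.05, adjusted p = 0.0315), and lost its call under 7 of the 15 other settings. FDX1, the ferredoxin that passes electrons to the mitochondrial enzymes, was at 93.9 to 111 CPM in KD and 125 to 142 CPM in OE (log2 fold change 0.36 ± 0.06, adjusted p = 1.92e-05).

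CYP17A1, the 17-hydroxylase and 17,20-lyase on the way to cortisol and androgens, was at 30.6, 30.4, 25.9 and 25.4 CPM in KD and 47.7, 42.8, 58.7 and 46.0 CPM in OE. SULT2A1, which adds sulfate to dehydroepiandrosterone, was at 57.1, 47.4, 47.3 and 53.8 CPM in KD and 84.8, 82.2, 69.3 and 76.8 CPM in OE. PAPSS2, which makes the sulfate donor used by SULT2A1, was at 23.9, 21.2, 25.2 and 19.3 CPM in KD and 41.4, 45.7, 42.1 and 39.7 CPM in OE. In all 3 genes every OE library was above every KD library. The log2 fold changes were 0.80 ± 0.09 (adjusted p = 5.22e-08), 0.60 ± 0.07 (adjusted p = 1.3e-07) and 0.91 ± 0.09 (adjusted p = 1.82e-09) in that order.

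CYP21A2, the 21-hydroxylase of the cortisol and aldosterone branches, was at 103 to 111 CPM in KD and 124 to 141 CPM in OE (log2 fold change 0.32 ± 0.06, adjusted p = 8.15e-05); a near-identical pseudogene makes its counts less certain. HSD3B2, the dehydrogenase that acts on both branches, was not called (17.3 to 21.4 CPM in KD and 18.2 to 24.7 CPM in OE; log2 fold change 0.14 ± 0.12, adjusted p = 0.497). AKR1C3, a reductase that forms testosterone and has close paralogues, was the member called lower, at 62.9 to 66.6 CPM in KD and 44.6 to 53.6 CPM in OE (log2 fold change -0.39 ± 0.07, adjusted p = 0.00014). NR5A1, the nuclear receptor that drives this gene set, was at 481 to 598 CPM in KD and 532 to 591 CPM in OE and was not called (log2 fold change 0.057 ± 0.051, adjusted p = 0.534). MC2R, the receptor for the pituitary hormone ACTH, was not called (log2 fold change 0.34 ± 0.20, adjusted p = 0.297).

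The window before CYP17A1 (chr10:102837414-102837663, minus strand, GRCh38.p14) is shown as the steroidogenic counterpart of the matrix promoters above.
CYP17A1: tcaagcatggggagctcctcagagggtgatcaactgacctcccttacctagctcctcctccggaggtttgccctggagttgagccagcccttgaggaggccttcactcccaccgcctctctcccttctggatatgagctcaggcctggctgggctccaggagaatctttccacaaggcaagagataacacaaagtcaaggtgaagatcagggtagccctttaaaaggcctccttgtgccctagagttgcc
None of the 3 motifs matched in these 250 bases. AAGGTCA was found in 3.44% of all windows, and, counted per gene, in 1 of 82 named genes lower in OE and in 3 of 81 higher in OE. The absence of these exact letters says nothing about binding of NR5A1, which accepts other letters.

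**Figure D3:**
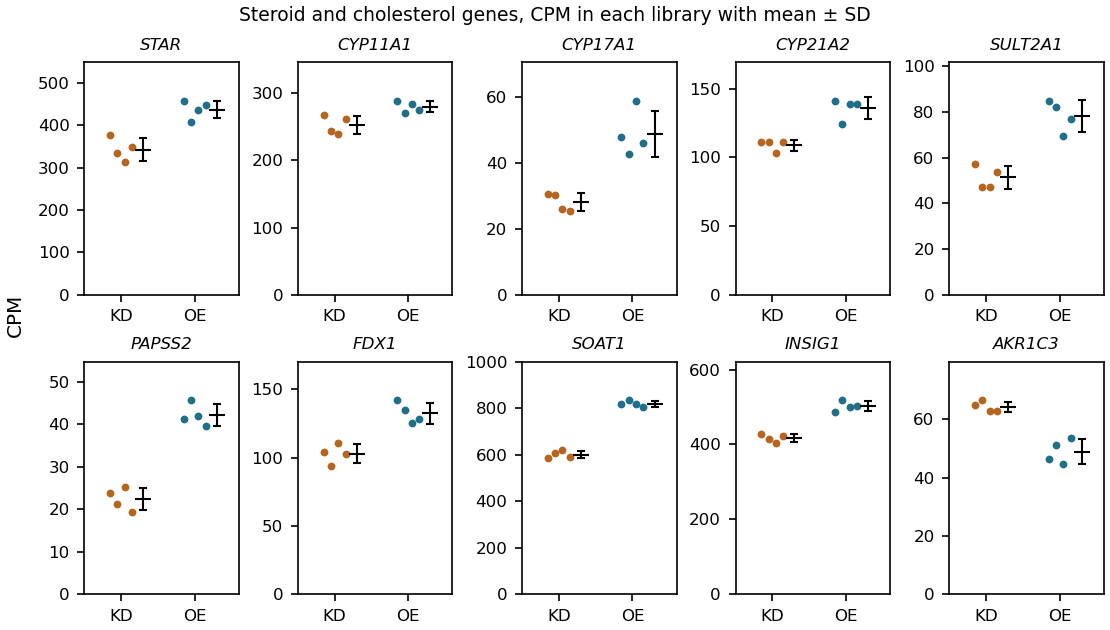
CPM of 10 genes of steroid synthesis and cholesterol handling in each of the 4 KD and 4 OE libraries (points), with the mean and SD beside them; each axis starts at 0. CYP17A1, SULT2A1 and PAPSS2 show the widest gaps, CYP11A1 the narrowest, and AKR1C3 is the gene that lies lower in OE.

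Of 24 tested genes of adrenocortical identity and the ACTH response, 6 were called higher and 3 lower (25.0% and 12.5%). The number lower was 1 without KD replicate 6 or OE replicate 6. SOAT1, which esterifies cholesterol for storage and is highly expressed in the adrenal cortex, was at 585, 606, 618 and 589.8 CPM in KD and 819, 834, 818 and 803 CPM in OE, without overlap (log2 fold change 0.45 ± 0.04, adjusted p = 9.06e-12). KCNJ5, a potassium channel of aldosterone control, was at 163 to 204 CPM in KD and 207 to 212 CPM in OE (log2 fold change 0.26 ± 0.06, adjusted p = 0.00105). AGTR1, the angiotensin receptor that stimulates aldosterone output, was at 139 to 147 CPM in KD and 158 to 178 CPM in OE (log2 fold change 0.23 ± 0.05, adjusted p = 0.00136). PRKAR1A, the inhibitory subunit of the cyclic AMP-dependent kinase, was at 333 to 406 CPM in KD and 414 to 454 CPM in OE (log2 fold change 0.23 ± 0.05, adjusted p = 0.000861). NR4A3, a nuclear receptor induced by hormone stimulation, was lower in OE, at 70.2 to 86.4 CPM in KD and 54.7 to 59.7 CPM in OE (log2 fold change -0.43 ± 0.07, adjusted p = 1.66e-05).

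Of 26 tested genes of cholesterol synthesis and uptake, 4 were called higher and 2 lower (15.4% and 7.69%). The number lower was 1 without KD replicate 3 or 6, without OE replicate 3, 4 or 6, and with corrections for GC content and length. INSIG1, which holds back the factors that activate the pathway, was at 403 to 427 CPM in KD and 488 to 518 CPM in OE (log2 fold change 0.27 ± 0.04, adjusted p = 4.24e-06). STARD4, a cytosolic sterol carrier, was at 139 to 184 CPM in KD and 194 to 225 CPM in OE (log2 fold change 0.36 ± 0.07, adjusted p = 0.000446). SC5D, a late enzyme of synthesis, was at 97.9 to 117 CPM in KD and 119 to 131 CPM in OE (log2 fold change 0.26 ± 0.06, adjusted p = 0.00225). SREBF2, the main activator of the pathway, was not called (log2 fold change -0.067 ± 0.051, adjusted p = 0.451). Of 34 tested genes of fatty acid and triglyceride handling, 6 were called higher and 2 lower (17.6% and 5.88%). CD36, a scavenger receptor that takes up fatty acids and lipoproteins, was at 124, 129, 128 and 135 CPM in KD and 61.3, 72.2, 72.8 and 67.9 CPM in OE (log2 fold change -0.91 ± 0.06, adjusted p = 1.39e-14). SREBF1, the activator of fatty acid synthesis, was at 179 to 217 CPM in KD and 136 to 171 CPM in OE (log2 fold change -0.40 ± 0.06, adjusted p = 3.08e-05). The desaturase gene SCD was higher in OE, at 1364 to 1470.1 CPM in KD and 1640.3 to 1666 CPM in OE (log2 fold change 0.21 ± 0.04, adjusted p = 2.54e-05). ABCA1, which exports cholesterol, was lower in OE (log2 fold change -0.66 ± 0.10, adjusted p = 1.37e-05). The 10 tested regulators of adipocyte differentiation, the process DLK1 is best known to inhibit, had 2 called members, both lower in OE (20% against 6.32% of all genes). CEBPD, an early transcription factor of that process, was at 21.1 to 33.8 CPM in KD and 12.5 to 16.8 CPM in OE (log2 fold change -0.86 ± 0.13, adjusted p = 7.05e-06) and kept its call in all 15 other settings. CEBPB, a related factor, was at 37.5 to 50.3 CPM in KD and 36.3 to 38.6 CPM in OE, with overlap between the groups (log2 fold change -0.25 ± 0.09, adjusted p = 0.0455), and lost its call in 10 of the 15; its log2 fold change was -0.115 with corrections for GC content and length (adjusted p = 0.37). The list then had 1 called member.

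Of 8 tested markers of the adrenal capsule and its progenitors, 3 were called (37.5%), all lower in OE. In the 15 other settings 2 to 4 were, with 2 without OE replicate 3 or OE replicate 6. LGR5 is described with the Wnt genes. NES, the intermediate filament nestin, was at 15 to 18.3 CPM in KD and 8.45 to 13.4 CPM in OE (log2 fold change -0.64 ± 0.14, adjusted p = 0.00125). NR2F2, the nuclear receptor COUP-TFII, was at 164 to 171 CPM in KD and 147 to 153 CPM in OE (log2 fold change -0.17 ± 0.05, adjusted p = 0.0161), and lost its call in 3 of the 15 other settings.

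In the Notch pathway, 2 of 31 tested members were called in each direction, 6.45% each, near the shares of all genes. The number lower was 1 with all 12 libraries and without KD replicate 3, 4 or 6 or OE replicate 3 or 4, and the number higher 1 with corrections for GC content and length. The receptors were not called: NOTCH1 (log2 fold change 0.22 ± 0.18, adjusted p = 0.478), NOTCH2 (log2 fold change 0.045 ± 0.049, adjusted p = 0.626) and NOTCH3 (log2 fold change -0.088 ± 0.19, adjusted p = 0.83). Neither was the target HES1 (log2 fold change -0.076 ± 0.16, adjusted p = 0.835) nor the ligand JAG1 (log2 fold change -0.66 ± 0.25, adjusted p = 0.0665). RBPJ, the DNA-binding effector of the pathway, was higher in OE at 112 to 130.4 CPM in KD and 149 to 156 CPM in OE (log2 fold change 0.30 ± 0.06, adjusted p = 0.000123). NUMBL, related to the Notch inhibitor NUMB, was lower at 27.2 to 32.9 CPM in KD and 21.8 to 24.9 CPM in OE (log2 fold change -0.38 ± 0.10, adjusted p = 0.0063).

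In the TGF-beta, BMP and inhibin family, 4 of 37 tested members were called higher and 11 lower (10.8% and 29.7%). The median log2 fold change of all 37 was 0.0319, and 0.0581 without KD replicate 3, opposite in sign to the balance of the calls. BMP4, a ligand, was at 204, 181, 179 and 203 CPM in KD and 136, 133, 120.2 and 137 CPM in OE (log2 fold change -0.54 ± 0.06, adjusted p = 1.64e-09). ID1 and ID3 are targets of BMP signalling that bind and inhibit helix-loop-helix factors. ID1 was at 7.36 to 10.5 CPM in KD and 3.27 to 5.98 CPM in OE (log2 fold change -1.05 ± 0.19, adjusted p = 0.000105). ID3 was at 15.5 to 18.3 CPM in KD and 6.53 to 8.3 CPM in OE (log2 fold change -1.16 ± 0.14, adjusted p = 5.12e-08). SMAD6, a target and inhibitor of the same branch, was at 19.4 to 21.6 CPM in KD and 9.25 to 17.4 CPM in OE (log2 fold change -0.60 ± 0.14, adjusted p = 0.00184). FST, follistatin, which captures activin, was at 32.6 to 39.1 CPM in KD and 17.2 to 21.1 CPM in OE (log2 fold change -0.83 ± 0.10, adjusted p = 6.56e-08). None of these 5 genes overlapped between the groups. Without KD replicate 6 the family had 7 called lower, and it had 1 called higher without OE replicate 4 and 2 without OE replicate 6. With corrections for GC content and length 1 was called higher and 9 lower.

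Of 18 tested targets of beta-catenin, 1 was called higher and 4 lower (5.56% and 22.2%), with none higher without OE replicate 3 or OE replicate 6. BMP4, LGR5, TNFRSF19 and APCDD1 were the targets called lower. LGR4, SFRP1 and DKK2, described below, are not among the 18. They belong to a list of 29 tested Wnt ligands, receptors and inhibitors. It had 3 called higher and 5 lower (10.3% and 17.2%), and 2 to 4 and 4 to 6 in the other settings. LGR5, both a target and a receptor for R-spondins that strengthens Wnt signals, was at 21.1 to 31.5 CPM in KD and 14.5 to 17.2 CPM in OE (log2 fold change -0.76 ± 0.12, adjusted p = 1.13e-05). Its relative LGR4 moved the other way, at 18.0 to 22.2 CPM in KD and 27.9 to 33.2 CPM in OE (log2 fold change 0.60 ± 0.10, adjusted p = 3.2e-05). SFRP1, a secreted Wnt inhibitor, was at 42.8 to 49.5 CPM in KD and 28.4 to 36.9 CPM in OE (log2 fold change -0.51 ± 0.09, adjusted p = 3.16e-05). DKK2, a secreted ligand of Wnt co-receptors, was at 15.3 to 18.5 CPM in KD and 9.17 to 11.1 CPM in OE (log2 fold change -0.71 ± 0.13, adjusted p = 0.000108). CTNNB1, beta-catenin itself, was just outside the threshold (log2 fold change -0.099 ± 0.035, adjusted p = 0.054), and the targets AXIN2 (log2 fold change -0.12 ± 0.06, adjusted p = 0.197) and LEF1 (log2 fold change -0.059 ± 0.068, adjusted p = 0.658) were not called.

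Regulators of Ras differed between family members. RASGRP3, an exchange factor that activates Ras and responds to diacylglycerol, was at 5.03, 6.93, 8.47 and 6.73 CPM in KD and 1.54, 2.25, 1.36 and 1.6 CPM in OE (log2 fold change -2.01 ± 0.25, adjusted p = 1.23e-07). RASGRF1, an exchange factor that responds to calcium and that is imprinted in mouse, was at 11.6 to 16.2 CPM in KD and 20.6 to 25.7 CPM in OE (log2 fold change 0.74 ± 0.12, adjusted p = 3.83e-05). SOS1, the exchange factor downstream of growth factor receptors, was at 68.4 to 82.0 CPM in KD and 93.1 to 96.4 CPM in OE (log2 fold change 0.32 ± 0.06, adjusted p = 0.000419). NF1, which switches Ras off, was at 80.1 to 91.3 CPM in KD and 90.9 to 114 CPM in OE with overlap between the groups (log2 fold change 0.30 ± 0.07, adjusted p = 0.00136). Over the 26 tested, 3 were called higher and 1 lower (11.5% and 3.85%), with 2 lower without KD replicate 5 and with corrections for GC content and length. Among receptor tyrosine kinases and their ligands, 4 of 30 were called higher and 2 lower (13.3% and 6.67%). The number lower was 0 to 1 without KD replicate 4 or 6 or OE replicate 3 or 5 and 4 with corrections for GC content and length. FGFR4, a receptor of fibroblast growth factors, was at 49.5 to 61.0 CPM in KD and 73.0 to 84.3 CPM in OE (log2 fold change 0.53 ± 0.07, adjusted p = 1.03e-06). The ligand PDGFD was at 74.2 to 80.0 CPM in KD and 112 to 118 CPM in OE (log2 fold change 0.58 ± 0.06, adjusted p = 1.39e-09). In the IGF and insulin axis, 3 of 16 were called higher and 1 lower (18.8% and 6.25%), with 3 lower without KD replicate 5. The list's median was -0.0833. The insulin receptor INSR was at 52.9 to 62.6 CPM in KD and 67.4 to 82.5 CPM in OE (log2 fold change 0.39 ± 0.07, adjusted p = 0.000158). Its adaptor IRS2 was at 468 to 569 CPM in KD and 376 to 426 CPM in OE (log2 fold change -0.37 ± 0.05, adjusted p = 1.62e-06). IGF2, the growth factor most often raised in adrenocortical carcinoma, was not called (log2 fold change -0.087 ± 0.11, adjusted p = 0.709).

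Of 58 tested genes of S phase, 1 was called higher and 21 lower (1.72% and 36.2%), with a median log2 fold change of -0.145. TK1, a thymidine kinase, was at 96.0, 71.9, 73.3 and 79.6 CPM in KD and 57.1, 58.8, 59.4 and 57.7 CPM in OE (log2 fold change -0.46 ± 0.07, adjusted p = 2.25e-05). CDC45, part of the replicative helicase, was at 84.1 to 100.3 CPM in KD and 61.9 to 71.9 CPM in OE (log2 fold change -0.45 ± 0.07, adjusted p = 6.13e-06). RFC3, a subunit of the clamp loader, was at 141 to 159.8 CPM in KD and 101 to 113 CPM in OE (log2 fold change -0.48 ± 0.06, adjusted p = 4.79e-08). POLD1, the catalytic subunit of DNA polymerase delta, was at 157 to 178 CPM in KD and 128 to 136 CPM in OE (log2 fold change -0.32 ± 0.05, adjusted p = 2.33e-05). All 4 were lower in every OE library. PCNA, the sliding clamp, lay just outside the threshold (log2 fold change -0.13 ± 0.05, adjusted p = 0.0653). The number called lower was 16 without KD replicate 3, 10 without KD replicate 6, 12 without OE replicate 3 and 22 with corrections for GC content and length.

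Of 60 tested genes of G2 and mitosis, 3 were called higher and 15 lower (5.0% and 25.0%). FOXM1, the transcription factor of this phase, was at 291 to 338 CPM in KD and 251 to 272 CPM in OE (log2 fold change -0.28 ± 0.05, adjusted p = 6.68e-05). CDC20, an activator of the anaphase-promoting complex, was at 192 to 215 CPM in KD and 163 to 174 CPM in OE (log2 fold change -0.24 ± 0.05, adjusted p = 0.00059), and PIMREG, a mitotic regulator, at 80.5 to 95.1 CPM in KD and 65.6 to 73.4 CPM in OE (log2 fold change -0.33 ± 0.07, adjusted p = 0.000392). KIF20B, a kinesin of cytokinesis, was higher at 116 to 144 CPM in KD and 159 to 177 CPM in OE (log2 fold change 0.35 ± 0.06, adjusted p = 0.000104), as was the proliferation marker MKI67, whose groups overlapped (449, 538, 448 and 459.6 CPM in KD and 520.1, 526, 585 and 563 CPM in OE; log2 fold change 0.21 ± 0.05, adjusted p = 0.00535). MKI67 lost its call with all 12 libraries (adjusted p = 0.15) and with corrections for GC content and length (log2 fold change 0.119, adjusted p = 0.0613). The G2 and mitosis list had 12 called lower without KD replicate 3, 10 without KD replicate 6, and 9 without OE replicate 3, OE replicate 5 or OE replicate 6. With corrections for GC content and length 1 was called higher and 22 lower. CDKN1A, the p53 target that inhibits cyclin-dependent kinases, was higher in OE at 105 to 117 CPM in KD and 136 to 151 CPM in OE (log2 fold change 0.39 ± 0.06, adjusted p = 2.69e-06). Over 29 p53 targets 2 were called higher and 1 lower (6.9% and 3.45%), neither above the share of all genes. Leaving out 1 library at a time gave 1 to 3 and 0 to 1.

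Of 82 tested cytosolic ribosomal protein genes, 2 were called higher and 18 lower (2.44% and 22.0%). The differences were small. RPSA, of the small subunit, was at 1063 to 1112 CPM in KD and 910.4 to 926 CPM in OE (log2 fold change -0.24 ± 0.04, adjusted p = 4.32e-06). RPLP0, of the stalk, was at 838 to 889 CPM in KD and 725 to 737 CPM in OE (log2 fold change -0.24 ± 0.04, adjusted p = 8.17e-06). RPS2, of the small subunit, was at 855 to 1015 CPM in KD and 764 to 803 CPM in OE (log2 fold change -0.25 ± 0.05, adjusted p = 0.000312). The number called lower was 13 without KD replicate 3, 11 without KD replicate 6 or without OE replicate 4, and 9 without OE replicate 5. Processed pseudogenes of ribosomal proteins make these counts less certain. Of 74 nuclear genes of the respiratory chain 2 were called higher and 3 lower, both below the shares of all genes; the number higher was 5 without KD replicate 5 and 1 without KD replicate 3, KD replicate 6 or OE replicate 4, and the number lower 1 without KD replicate 3 or KD replicate 6.

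**Figure D4:**
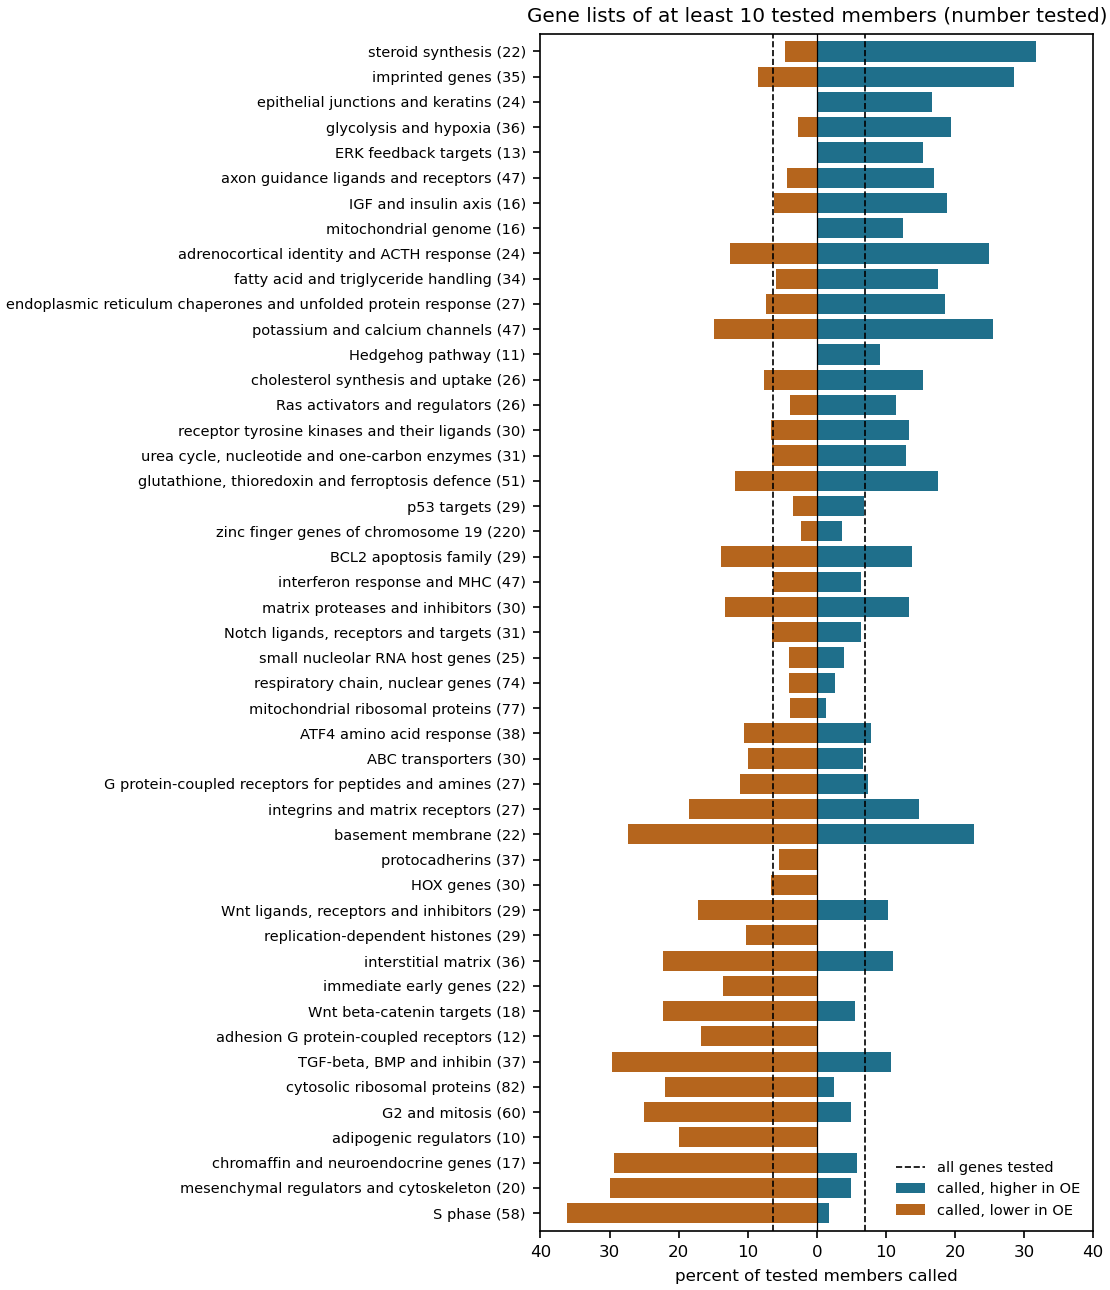
Percent of the tested members of each gene list with at least 10 of them called higher in OE (blue, to the right) and lower in OE (brown, to the left), with dashed lines at 6.98% and 6.32%, the shares of all 15510 genes; the number tested stands beside each name. Among the lists drawn, steroid synthesis (31.8%) reaches furthest to the right and S phase (36.2%) furthest to the left. Several lists extend past both lines, among them basement membrane genes and potassium and calcium channels.

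Of 47 tested genes of potassium and calcium channels, 12 were called higher and 7 lower (25.5% and 14.9%). Some channels of these kinds take part in the control of aldosterone output in the adrenal cortex. The potassium channel KCND3 was at 43.2 to 53.9 CPM in KD and 64.4 to 71.3 CPM in OE (log2 fold change 0.54 ± 0.07, adjusted p = 1.3e-06). CACNA1D, an L-type calcium channel, was at 81.3 to 95.2 CPM in KD and 112 to 120.1 CPM in OE (log2 fold change 0.41 ± 0.06, adjusted p = 5.17e-06). CACNA1G, a T-type calcium channel, was at 20.9 to 37.5 CPM in KD and 48.2 to 51.2 CPM in OE (log2 fold change 0.81 ± 0.12, adjusted p = 4.02e-05). The background potassium channel KCNK3 was lower in OE at 1359 to 1614 CPM in KD and 1148 to 1249 CPM in OE (log2 fold change -0.29 ± 0.04, adjusted p = 2.19e-05). All 4 separated the groups.

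In glycolysis and the hypoxia response, 7 of 36 were called higher and 1 lower (19.4% and 2.78%). The median over the list was -0.0287, opposite in sign to the balance of the calls. The number higher was 4 without OE replicate 4 and 3 without OE replicate 6, and the number lower was 3 without KD replicate 4 or with corrections for GC content and length and 2 without KD replicate 5 or OE replicate 6. The pyruvate kinase gene PKM was at 3154 to 3672 CPM in KD and 2541 to 2708 CPM in OE (log2 fold change -0.36 ± 0.04, adjusted p = 2.78e-09). The hexokinase gene HK2 moved the other way, at 5.26 to 9.3 CPM in KD and 10.6 to 14.9 CPM in OE (log2 fold change 0.78 ± 0.17, adjusted p = 0.00129). P4HA1, a collagen prolyl hydroxylase, was also higher in OE, at 25.4 to 29.7 CPM in KD and 36.5 to 41.1 CPM in OE (log2 fold change 0.44 ± 0.09, adjusted p = 0.000377). Of 51 genes of glutathione, thioredoxin and ferroptosis defence, 9 were called higher and 6 lower (17.6% and 11.8%). These were 5 and 3 without KD replicate 6, with 4 higher without OE replicate 6 and 3 lower without OE replicate 3 or OE replicate 5. FTL, the light chain of ferritin, was at 362 to 396 CPM in KD and 458 to 483 CPM in OE (log2 fold change 0.31 ± 0.04, adjusted p = 4.87e-07). Axon guidance genes had 8 of 47 called higher and 2 lower (17.0% and 4.26%). Without KD replicate 5 these were 4 and 5, which turned the balance. The number higher was 5 without OE replicate 5 and 4 without OE replicate 6, and the number lower was 4 without KD replicate 4 or with corrections for GC content and length. The ephrin EFNB1 was at 12.0 to 17.6 CPM in KD and 22.4 to 30.1 CPM in OE (log2 fold change 0.76 ± 0.12, adjusted p = 1.89e-05). The Slit receptor ROBO1 was at 157 to 159.5 CPM in KD and 119 to 129.6 CPM in OE (log2 fold change -0.35 ± 0.05, adjusted p = 3.29e-06).

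DLK1 belongs to a class of genes expressed from 1 parental copy, many of which act in fetal growth. Of 35 other tested genes, listed as imprinted in human or mouse, 10 were called higher and 3 lower (28.6% and 8.57%). Whether each was expressed from 1 copy in these cells was not tested. PLAGL1, a zinc finger factor of growth control, was at 308, 391, 349 and 343 CPM in KD and 529, 545, 555 and 528 CPM in OE (log2 fold change 0.63 ± 0.05, adjusted p = 7.74e-11). PEG3, a paternally expressed zinc finger gene, was at 97.4 to 124 CPM in KD and 145 to 172 CPM in OE (log2 fold change 0.50 ± 0.06, adjusted p = 1.24e-06). MAGEL2, of the domain lost in Prader-Willi syndrome, was at 10.9 to 13.4 CPM in KD and 17.5 to 23.4 CPM in OE (log2 fold change 0.80 ± 0.13, adjusted p = 1.07e-05). IGF2R, the receptor that clears IGF2, was at 192 to 224 CPM in KD and 234 to 287 CPM in OE (log2 fold change 0.26 ± 0.06, adjusted p = 0.00148). NLRP2, a member of the NLR family, was at 2.13 to 3.1 CPM in KD and 6.74 to 9.17 CPM in OE (log2 fold change 1.57 ± 0.21, adjusted p = 4.87e-07). The groups did not overlap in any of these 5 genes.

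H19, a noncoding RNA beside IGF2, was counted 58, 38, 37 and 48 times in KD and 2, 6, 8 and 7 times in OE (log2 fold change -2.93 ± 0.38, adjusted p = 3.27e-07). TFPI2, a protease inhibitor of the matrix, was at 46.2 to 47.5 CPM in KD and 23.8 to 27.0 CPM in OE (log2 fold change -0.90 ± 0.08, adjusted p = 1.78e-10). MEG3, the noncoding RNA of the same imprinted domain as DLK1, was not called, at 902, 1433, 1318 and 1259 CPM in KD and 1562, 1454, 1575 and 1553 CPM in OE (log2 fold change 0.32 ± 0.14, adjusted p = 0.22). Its lowest value was that of KD replicate 3. MEG9, another noncoding RNA of that domain, was higher in OE, at 23.5, 36.6, 40.0 and 29.7 CPM in KD and 45.7, 42.7, 46.9 and 44.0 CPM in OE (log2 fold change 0.47 ± 0.11, adjusted p = 0.00801), and was not called with corrections for GC content and length (adjusted p = 0.0537). Its groups did not overlap. The number of imprinted genes called higher was 8 to 11 when each library was left out in turn, and 10 with corrections for GC content and length.

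Transcript composition moved with the contrast. In 3078 genes with the lowest GC content (27.8% to 40.9% of the longest transcript) the median log2 fold change was 0.0619, with 391 called higher and 98 lower. In 3077 with the highest GC content (57.9% to 83.9%) it was -0.08, with 80 called higher and 336 lower. The 3077 genes with the longest transcripts, from 5711 bases, had a median of 0.0545, with 494 called higher and 142 lower. With offsets for GC content and length, 1004 genes were called higher and 1129 lower, and 1595 were called in the same direction with and without them, 77.3% of the original calls and 74.8% of those with offsets. The part of composition in the gene lists was not tested beyond these counts.

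Calls also clustered by position. Between 100 and 120 Mb on chromosome 5 (GRCh38; Mb, megabases), 20 of 54 tested genes were called higher and 2 lower (40.7%), with a median log2 fold change of 0.197, and 0.115 with GC and length offsets, where 11 were called higher and 2 lower. On chromosome 13, 5 of 274 genes were called higher and 43 lower, with a median of -0.0942, and -0.129 with offsets. All 5 stretches of 20 Mb there had a median below 0, from -0.137 to -0.0768. COL4A1, COL4A2, IRS2, RFC3 and TNFRSF19, named above as lower in OE, lie on chromosome 13. The first 20 Mb of chromosome 20 had 2 of 100 called higher and 17 lower, with CHGB, described above, among those lower. On chromosome 19, 27 of 1102 were called higher and 135 lower. Together these were 14.7%, near the 13.3% of all genes. The median there was -0.0965, and -0.0451 with offsets, where 39 were called higher and 87 lower. Of 155 stretches, 139 had a median within 0.1 of 0.

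**Figure D5:**
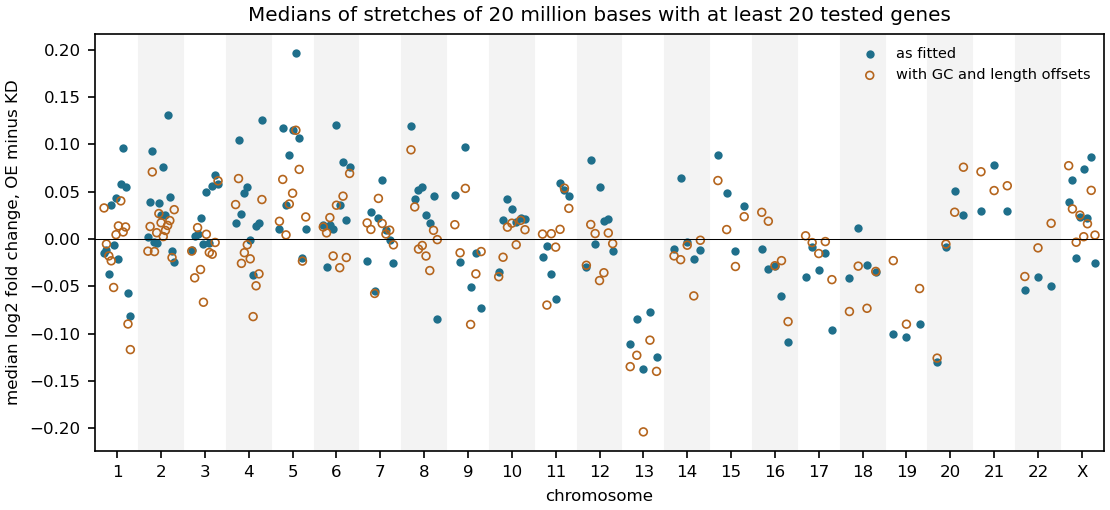
Median log2 fold change (OE minus KD) of stretches of 20 Mb with at least 20 tested genes, ordered along each chromosome, as fitted (filled) and with GC and length offsets (open). All stretches of chromosome 13 lie below 0 in both, and 1 stretch of chromosome 5 lies highest at 0.197.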

How the data were processed

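The deposited table holds raw counts per Ensembl gene for each library, which the authors made on GRCh38; the submitters' processing notes list HISAT2 1.03, featureCounts of Subread, DESeq2 and FastQC. How strand, read pairs and reads with several matches were counted, and on which annotation, was not stated there, so genes with close paralogues, pseudogenes or overlapping genes are less certain. A gene without counts (ANK2) and 3 lines naming no gene were not used. Coordinates are from GENCODE release 29, sequences from RefSeq.

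The 8 libraries were analysed with edgeR 4.0.16 (R 4.3.3): filterByExpr (minimum count 10, minimum total 15), TMM scaling, robust quasi-likelihood F tests with 6 residual degrees of freedom, and Benjamini-Hochberg adjustment over 15510 genes, called under 0.05. The common biological coefficient of variation was 7.66%. CPM used TMM-scaled library sizes. On simulated counts it recovered 30% of genes changed 1.2-fold, 76% at 1.5-fold, 80% at 2-fold and 96% at 3-fold. It called 17 of 15065 unchanged genes. In the simulation 50 genes were changed at each fold, none of them from the lowest levels. Far fewer genes changed there than were called in the data, so the adjusted threshold was stricter and these shares do not carry over. Alternatives were DESeq2 1.42.0, other scalings, no filter, all 12 libraries, the replicate number as a block, each library left out, and offsets for GC content and length (limma 3.58.1), the last chosen after seeing the data.

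The comparison and the gene lists were chosen with earlier results of these data known, and no list was tested as a set. Named genes are DLK1, the 12 highest and 12 lowest called protein-coding genes by fold change (mean log2 CPM 0 or more, groups not overlapping), the 3 highest and 3 lowest of other biotypes by that rule, and, from each list, the called members of smallest adjusted p, up to 4. The text draws on these, and on pathway heads that were not called. Some genes of the lists, which count in their totals, are not reported here. VCAN, NID2, COL6A2, LAMA2, CYP21A2, AKR1C3, PEG3, MAGEL2, SMAD6, TNXB, CYP11A1, KCNJ5, CACNA1G, MKI67, CDC20, MEG9 and MIR196A1 stand outside this rule and were chosen after their values were seen. The median over all genes was -0.00376 on the log2 scale.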

Additional observations from a re-analysis of the deposited data

Results flagged for a closer look

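Single libraries stood apart from the other 3 of their group in 11 of 236 gene levels checked, each gene in each group, by Dixon's test at 95%. That test flags about 1 in 20 groups by chance, so about this number of flags would arise by chance. In KD these were COL4A1 in replicate 3 (357 CPM), KCNJ5 in replicate 3 (204 CPM), NES in replicate 3 (18.3 CPM), ASS1 in replicate 4 (33.8 CPM), MKI67 in replicate 4 (538 CPM), CYP21A2 in replicate 5 (103 CPM) and IGF2R in replicate 5 (192 CPM). In OE they were LAMA2 in replicate 4 (195 CPM), CYP21A2 in replicate 4 (124 CPM), ACTA2 in replicate 5 (4.94 CPM) and CACNA1G in replicate 6 (48.2 CPM). Only MKI67 among them had a library of one group within the range of the other.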

How the results depend on the processing

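Counts of called genes stayed within 1.5 times of 1083 higher and 981 lower under other scalings, no filter, DESeq2, all 12 libraries and GC and length offsets. Leaving out 1 library gave 761 to 1045 higher and 649 to 1021 lower, and without KD replicate 6 the number lower moved to 649. DLK1 was called under every setting, with a log2 fold change of 1.228 to 1.317 when each library was left out. Of 207 named genes, 168 kept their call in all 15 settings, and none reversed. Over all genes, 1011, 49.0% of the 2064 called, were called in every setting. The replicate numbers did not pair the libraries: same-numbered deviations from the group means correlated at -0.0303 to 0.00199. With the replicate number as a block 999 genes were higher and 857 lower. GC and length offsets were chosen after seeing the data. Counts of list members moved by over 1.5 times in 203 instances and by less in 1387. In the simulation 30% of 1.2-fold changes were found. Far fewer genes changed there than were called here, so this share does not give the number missed in these data.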

Other observations

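In the interferon response and MHC list 3 of 47 were called higher and 3 lower (6.38% each), near the 6.98% and 6.32% of all genes, with B2M, the light chain of MHC class I, higher (log2 fold change 0.25 ± 0.04, adjusted p = 2.05e-05) and the factor IRF1 lower (log2 fold change -0.57 ± 0.12, adjusted p = 0.000913). Of 27 endoplasmic reticulum chaperone and unfolded protein response genes, 5 were called higher and 2 lower (18.5% and 7.41%; 3 higher without OE replicate 3 or OE replicate 4, and 4 lower with GC and length offsets), with XBP1, a transcription factor of that response, higher (log2 fold change 0.30 ± 0.07, adjusted p = 0.0024) and the chaperone cofactor SDF2L1 lower (log2 fold change -0.45 ± 0.08, adjusted p = 6.51e-05). The BCL2 apoptosis family had 4 of 29 called in each direction (13.8% each). There were 2 higher without KD replicate 6 or OE replicate 5, and 1 to 2 lower without OE replicate 3, 4 or 5. In this family HRK was higher (log2 fold change 1.07 ± 0.23, adjusted p = 0.000957). PMAIP1 was lower (log2 fold change -1.22 ± 0.36, adjusted p = 0.0176) and lost its call in 3 of the 15 other settings. Of 22 immediate early genes 3 were called (13.6%), all lower in OE, among them JUNB (log2 fold change -0.50 ± 0.09, adjusted p = 5.11e-05). Among 220 zinc finger genes of chromosome 19, 8 were called higher and 5 lower (3.64% and 2.27%), with 3 to 5 higher without KD replicate 6 or OE replicate 3, 4 or 5 and 3 lower without KD replicate 4 or 6 or OE replicate 3 or 6. Of 13 ERK feedback targets 2 were called higher (15.4%), the number was 0 without KD replicate 4 or OE replicate 5, and the list's median was -0.128. Of 12 adhesion G protein-coupled receptors 2 were called, both lower (16.7%), and 1 without KD replicate 4 or OE replicate 4.

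Of 16 tested genes of the mitochondrial genome 2 were called (12.5%), both higher in OE, among them the ribosomal RNA gene MT-RNR1 (log2 fold change 0.29 ± 0.05, adjusted p = 0.000521). The median log2 fold change of these genes was 0.158, and 0.0487 without KD replicate 3, the library with the smallest mitochondrial share, while the number called higher was 4 without it. Leaving out any other library except KD replicate 5 gave 1.

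In the wild-type libraries, which the comparison did not use, MIR196A2 was counted 0 times in each of replicates 3 to 6, as in OE. H19 was counted 0, 4, 3 and 2 times there, SORCS2 1, 6, 2 and 0 times, and ENSG00000275216 2, 0, 2 and 0 times. FN1 was counted 169, 170, 251 and 198 times and TNC 95, 79, 110 and 62 times in the wild-type libraries. Without scaling for depth, every wild-type count of FN1 and TNC lay below all KD counts (481 to 530 for FN1, 239 to 263 for TNC) and above all OE counts (65 to 104 and 31 to 52).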
